A study of Mus musculus with 6 samples.

Results

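The genes described here encode the machinery of oxidative phosphorylation. Members were chosen by symbol: every row of the deposited table beginning with Nduf and then a, b, c, s or v, with Uqcr, with Cox and a digit between 4 and 8, or with Atp5, together with Sdha, Sdhb, Sdhc, Sdhd, Cyc1 and Cycs. The rule took 92 of 23224 genes. They comprised 36 subunits of complex I, 4 of complex II, 9 of complex III with Cyc1, 19 of complex IV, 15 of complex V and the electron carrier cytochrome c (Cycs). Ndufa4 and its paralog Ndufa4l2 carry a complex I name and were placed with complex IV, where the protein is now known to sit. The remaining 8 were not subunits of a complex by their known roles: the complex I assembly factors Ndufaf1, Ndufaf2, Ndufaf3 and Ndufaf4, and the genes Cox4nb, Cox7a2l, Atp5s and Atp5sl. Cox4nb encodes a part of the endoplasmic reticulum membrane complex (RefSeq symbol Emc8), Cox7a2l a factor that joins respiratory complexes into supercomplexes, and Atp5s and Atp5sl now carry the names Dmac2l and Dmac2.

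In oxidative phosphorylation, complexes I and II pass electrons from NADH and succinate to ubiquinone, complex III passes them on to cytochrome c, and complex IV reduces oxygen. Complexes I, III and IV pump protons across the inner mitochondrial membrane, and complex V, the ATP synthase, uses their return to make ATP. Most subunits come from nuclear genes on many chromosomes and, outside complex II, are assembled with a core made from the mitochondrial genome. Levels of these mRNAs are therefore often described together. Intestinal stem cells and absorptive cells both use this pathway, and tumour cells vary in how far they rely on it.

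RNA was sequenced from AKP organoids, a mouse intestinal tumour model, grown from tumours that had formed in vivo. The compared groups were 3 libraries labelled SOX17KO, in which Sox17 had been targeted with CRISPR-Cas9, and 3 libraries labelled Control, and both came from the same kind of organoid. The labels and notes used here name neither the guides, nor the treatment of the Control cells, nor how many clones there were. The question behind the comparison was what SOX17, a transcription factor of the endoderm, does in colon cancer.

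Library totals were 18290912 to 24765258 counts in SOX17KO and 21238718 to 27503254 in Control. Sox17 itself measured 33.8, 41.9 and 45.1 CPM (read counts scaled to a common library size) in SOX17KO replicates 1, 2 and 3, against 34.4, 34.5 and 34.2 CPM in Control, and did not differ by edgeR's quasi-likelihood test (adjusted p = 0.345), so its level does not check the labels; leaving out SOX17KO replicate 1 it was called higher (edgeR adjusted p = 0.0113). SOX17KO replicate 1 stood apart: the correlation of log2 CPM over tested genes with a mean above 1 CPM was 0.958 and 0.961 with SOX17KO replicates 2 and 3, against 0.988 between those libraries. All 8 epithelial markers were abundant enough to test, and their summed level was 9953, 14169 and 14123 CPM in SOX17KO, against 14145, 13368 and 14149 CPM in Control. Of the 8, 6 had a log2 fold change above 0, against 52.7% of all tested genes. Every SOX17KO library was above every Control library for 4 of the 8 and below for 1, against 14.0% and 14.2% of all tested genes. EdgeR called 2 higher and 0 lower, against 3.67% and 3.20% of all tested genes. The called genes were the junction gene Cldn7 and the adhesion gene Epcam (edgeR adjusted p = 0.0223 and 0.0343). Cldn7 was at 289.7, 322 and 293 CPM in SOX17KO and 230.2, 224 and 217 CPM in Control. Epcam was at 678, 675 and 675 CPM in SOX17KO and 542, 532 and 523 CPM in Control. Both lost their calls without any 1 of the Control libraries (0.107 to 0.143 for Cldn7 and 0.142 to 0.207 for Epcam), and Epcam also without SOX17KO replicate 2 or 3 (0.0657 and 0.0749) and with no low-count filter (0.0707). Fibroblast markers were not tested in 7 of 7 cases, with at most 5 counts in any library and 3 of them at 0 in all. The 4 endothelial markers had at most 22 counts. Of 6 immune markers 2 were tested, with summed levels of 4.92, 12.2 and 13.9 CPM in SOX17KO and 10.9, 8.90 and 8.48 CPM in Control, and 2 were at 0 in every library. Of 5 striated muscle markers, which matter here because muscle has its own respiratory isoforms, 1 was tested: Tnnt2 was at 0.910 ± 0.370 CPM in SOX17KO and 3.61 ± 0.432 CPM in Control (SD, n = 3 each; edgeR adjusted p = 0.0148, and 0.0761 to 0.0900 on leaving out a Control library). The others had at most 12 counts, and 1 of them was at 0 in every library.

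Of the 92 members, 85 passed the filter on low counts and 7 did not. The untested members were all complex IV genes whose known place of expression lies outside the intestinal epithelium or under special conditions. Cox4i2, Cox6b2, Cox7b2, Cox8b and Cox8c had 0 counts in all libraries, which allows up to 3 counts, or 0.109 to 0.166 CPM depending on the library, by counting error alone. Cox6a2, the heart and muscle form, had 0, 1 and 5 counts in SOX17KO and 3, 0 and 2 in Control. Ndufa4l2, a hypoxia-induced gene, had 1, 0 and 0 counts in SOX17KO and 0, 1 and 2 in Control. The tested members took 1.16% to 1.30% of all counts in SOX17KO libraries and 1.09% to 1.19% in Control libraries.

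Levels per transcript length differed between complexes more than between groups. The median over the subunits of complex IV was 252.8 CPM per kb of transcript in SOX17KO and 238.7 in Control, and that of complex V was 227.7 in SOX17KO and 216.8 in Control. Complex III had a median of 151.4 CPM per kb in SOX17KO and 134.2 in Control. Complexes I and II lay lower, at 79.2 and 100.4 in SOX17KO against 70.3 and 92.6 in Control. The 4 assembly factors of complex I were lower again, with medians of 13.8 CPM per kb in SOX17KO and 12.2 in Control. The top of the range was held by Atp5b, the catalytic beta subunit of the ATP synthase, at 913 CPM per kb in SOX17KO and 809 in Control, and the bottom by Cox7a1, the heart and muscle isoform of a complex IV subunit, at 4.53 in SOX17KO and 4.72 in Control. Transcript lengths came from a later annotation than the one used for counting, which was not given, so levels per kb are approximate.

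**Figure D1:**
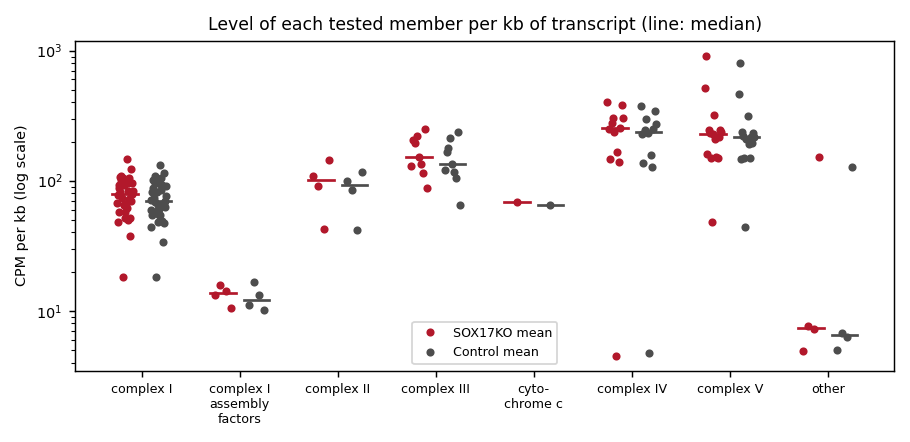
Mean level of each of the 85 tested members in CPM per kb of transcript on a log axis, by complex, with SOX17KO means to the left of Control means (3 libraries each) and a line at each median. The medians of complexes IV and V, 252.8 and 227.7 in SOX17KO and 238.7 and 216.8 in Control, lie above those of complex I at 79.2 in SOX17KO and 70.3 in Control.

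Of the 85 tested members, 0 were called higher and 1, Atp5j2, was called lower in SOX17KO at an edgeR adjusted p below 0.05, with adjustment over all 12137 genes tested. That is 1.18% of members, against 6.87% of all tested genes, which divide into 3.67% higher and 3.20% lower. Among the 3953 tested genes at least as abundant as the lower quartile of the members (59.4 CPM), 5.59% were called. An unadjusted edgeR p below 0.05 was reached by 8 members (9.41%), against 20.3% of all tested genes. DESeq2 called 2 members higher and limma-voom 0, and both called Atp5j2 lower. For 76 members (89.4%) the 95% interval of the fold change lay within 1.5-fold in either direction, which held for 59.7% of all tested genes and for 81.3% of the genes at least as abundant. In bulk RNA, a change in the share of cells that express a gene and a change in RNA per cell cannot be told apart.

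The members had small fold changes, most of which had a positive sign. The log2 fold change was above 0 for 76 of 85 members (89.4%), against 52.7% of all tested genes, and its median was 0.11 against 0.01 over all tested genes. The range ran from -0.54 to 0.43. Groups did not overlap, with every SOX17KO library above every Control library, for 17 members (20%), against 14.0% of all tested genes and 11.2% of those at least as abundant. For 2 members (2.35%), Atp5j2 and Ndufa9, every SOX17KO library was below every Control library, against 14.2% of all tested genes. None of the 17 higher members passed edgeR's test after adjustment over all genes. The epithelial markers given above had a median log2 fold change of 0.12 beside the members' 0.11. Their summed level overlapped between the groups, at 9953, 14169 and 14123 CPM in SOX17KO and 14145, 13368 and 14149 CPM in Control. The part of these markers in the members' values was not tested.

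**Figure D2:**
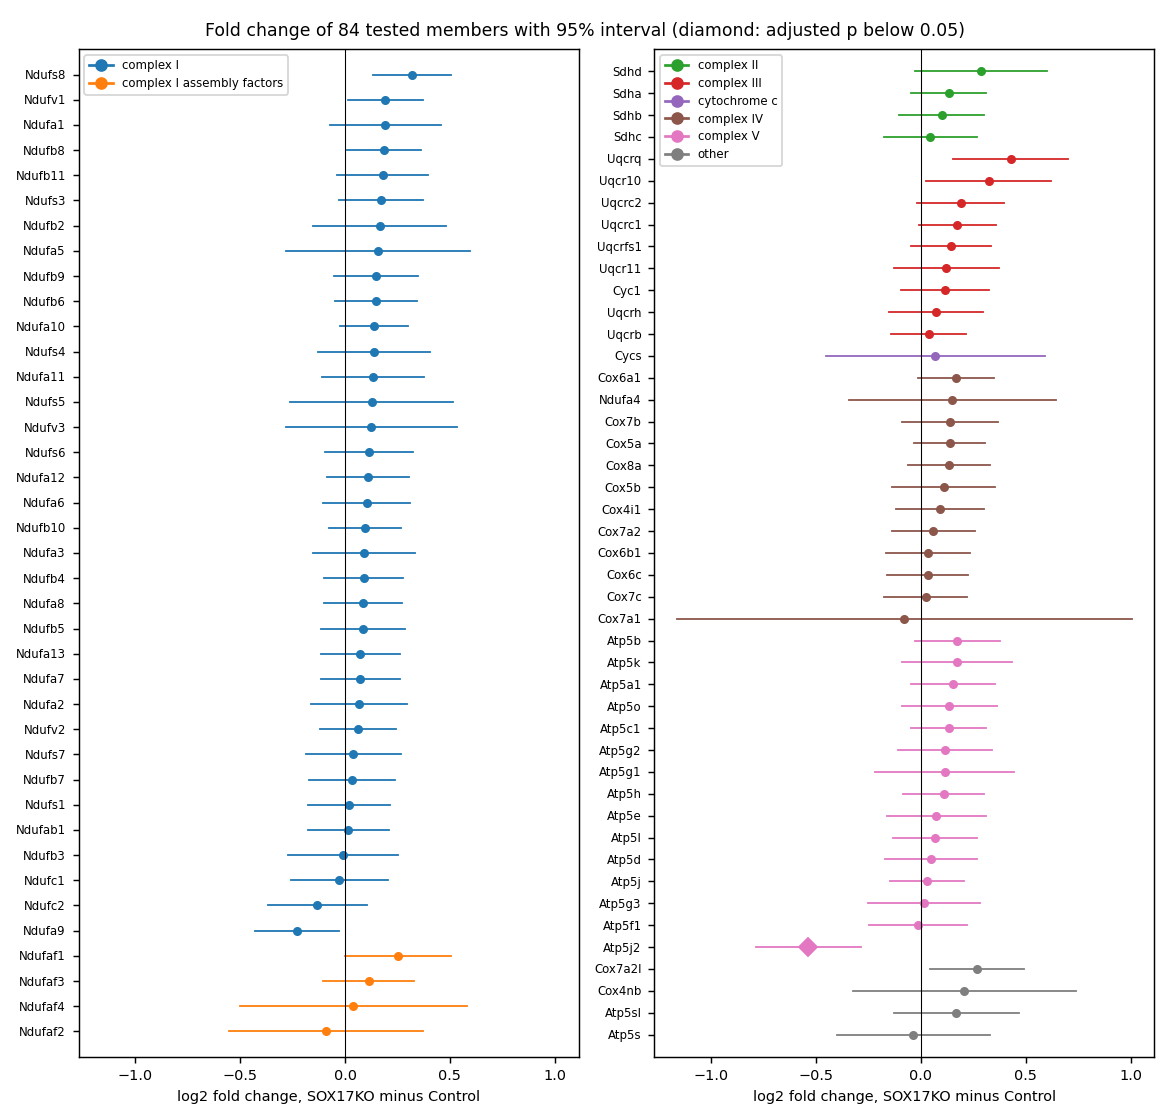
Log2 fold change (SOX17KO minus Control) of 84 of the 85 tested members with its 95% interval from edgeR, sorted within each complex, complex I and its assembly factors on the left and the others on the right. Most points lie to the right of 0, and Atp5j2, drawn as a diamond, is the member that passed the adjusted threshold.

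The positive median did not separate the libraries by group. Relative to the Control mean, the median member stood at 0.11, 0.15 and 0.05 on the log2 scale in SOX17KO replicates 1, 2 and 3, and at -0.06, -0.02 and 0.08 in Control replicates 1, 2 and 3. In Control replicate 3, 83 of 85 members were above the Control mean, in Control replicate 1 only 6 were, and in SOX17KO the numbers were 70, 71 and 52. Control replicate 3 therefore lay above SOX17KO replicate 3 by its median, while the medians over all tested genes were at most 0.01 in each library. Summed over all tested members, the level was 12331, 12703 and 11769 CPM in SOX17KO and 10823, 11275 and 11940 CPM in Control, with means of 12268 ± 469.9 and 11346 ± 562 CPM (SD, n = 3 each). The ratio of the means was 1.08, and the groups overlapped.

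By complex, the summed level was apart between the groups for complexes II and III and overlapped for the others. Complex III summed to 1389, 1486 and 1385 CPM in SOX17KO, against 1204, 1246 and 1334 CPM in Control, a ratio of means of 1.13. Complex II summed to 755, 751 and 696 CPM in SOX17KO, against 634, 662 and 693 CPM in Control, so that SOX17KO replicate 3 lay close to Control replicate 3. Complex I summed to 2580, 2649 and 2544 CPM in SOX17KO and 2328, 2416 and 2564 CPM in Control. Complex IV summed to 1884, 1899.5 and 1731 CPM in SOX17KO and 1637, 1701 and 1808 CPM in Control, and complex V to 5107, 5443 and 4919 CPM in SOX17KO and 4583, 4765 and 5029 CPM in Control. In each of these last 3 complexes Control replicate 3 was above SOX17KO replicate 3.

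**Figure D3:**
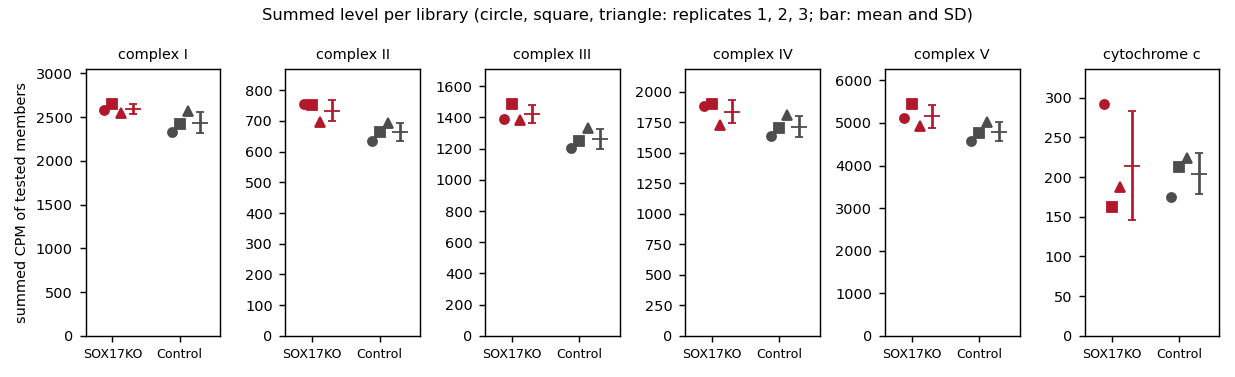
Summed CPM of the tested members of each complex and the level of cytochrome c (Cycs) in the 3 SOX17KO and 3 Control libraries (circle, square and triangle for replicates 1, 2 and 3; bar, mean and SD), with axes starting at 0. The lowest SOX17KO library of complex III, 1385 CPM, is above the highest Control library, 1334 CPM, and in complexes I, IV and V the groups overlap.

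Complex I, the NADH dehydrogenase, had 36 tested subunits, of which edgeR called 0 and 4 had an unadjusted p below 0.05. The log2 fold change was above 0 for 32 of them, with a median of 0.11 and a range of -0.23 to 0.32, and 6 had every SOX17KO library above every Control library. Ndufs8, an iron-sulfur subunit of the arm that carries electrons to ubiquinone, was at 70.5, 73.3 and 64.7 CPM in SOX17KO and 54.6, 55.0 and 57.6 CPM in Control. Its groups were apart, with a log2 fold change of 0.32 ± 0.08 (SE), and it did not pass edgeR's test (adjusted p = 0.0610). It was called higher by DESeq2 (adjusted p = 0.0188) and by edgeR without SOX17KO replicate 1 (adjusted p = 0.0195). DESeq2 called 2 members higher, and 4.52% of the 17039 genes with a count in any library, a larger set than the 12137 tested by edgeR. Ndufc2, a small membrane subunit, had a log2 fold change of -0.13 ± 0.10 (SE) and overlapping groups (edgeR adjusted p = 0.546).

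Ndufa9, a subunit next to the ubiquinone site, went the other way. It was at 124, 140.1 and 135 CPM in SOX17KO and 146, 158 and 164 CPM in Control, apart and lower in every SOX17KO library, with a log2 fold change of -0.23 ± 0.08 (SE) and an edgeR adjusted p of 0.178. The gene lies on chromosome 6, where 75.4% of 586 tested genes had a log2 fold change below 0, with a median of -0.24, and 10.8% were called lower. Of its 20 nearest tested neighbours, 10 on each side, 18 were below 0, their median was -0.34 and 4 were called lower. The other tested members on chromosome 6, Ndufb2, Ndufa5, Ndufa4 and Cycs, had log2 fold changes of 0.16, 0.16, 0.15 and 0.07. Their neighbourhood medians were 0.10, -0.13, -0.13 and -0.20. Ndufa5, Ndufa4 and Cycs were below 0 without SOX17KO replicate 1. Whether Ndufa9 differs with its chromosome was not tested.

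Among the assembly factors of complex I, none of 4 was called by edgeR and 0 had an unadjusted p below 0.05. Ndufaf1, which acts on the membrane arm, was at 16.6, 18.7 and 19.7 CPM in SOX17KO and 15.2, 16.2 and 14.8 CPM in Control, so that the groups were apart, and its edgeR adjusted p was 0.249 (0.0447 without SOX17KO replicate 1). Ndufaf3 was at 21.5, 19.6 and 22.3 CPM in SOX17KO and 19.5, 19.3 and 19.8 CPM in Control (edgeR adjusted p = 0.590). Ndufaf2 was at 13.3, 9.57 and 8.98 CPM in SOX17KO and 9.48, 11.6 and 13.0 CPM in Control, with overlapping groups and a log2 fold change of -0.09.

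Complex II, the succinate dehydrogenase shared with the citric acid cycle, had 4 of 4 subunits above 0, with 0 called by edgeR and 0 at an unadjusted p below 0.05. Sdha, the flavoprotein that oxidises succinate, was at 319, 331 and 301 CPM in SOX17KO and 283, 292 and 294 CPM in Control. Its groups were apart, with a log2 fold change of 0.13 ± 0.08 (SE) and an edgeR adjusted p of 0.402. Sdhd, a membrane anchor, was at 209.9, 168 and 151 CPM in SOX17KO and 136, 141 and 157 CPM in Control. The groups overlapped, since SOX17KO replicate 3 was below Control replicate 3, and the adjusted p was 0.293 by edgeR.

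In complex III, the cytochrome bc1 complex, all 9 tested genes had a log2 fold change above 0, with a median of 0.14. EdgeR called 0 of them, and 2 had an unadjusted p below 0.05. Uqcrq, a small subunit bound to cytochrome b, was at 113, 142 and 143 CPM in SOX17KO and 93.1, 95.3 and 108 CPM in Control. Its log2 fold change of 0.43 ± 0.12 (SE) was the highest among the 85 tested members, the groups were apart, and the edgeR adjusted p was 0.0808. It was called higher by DESeq2 (adjusted p = 0.0183), by edgeR with library totals only in place of TMM factors (adjusted p = 0.0466), where it was the 1 member called higher against 3.57% of all genes, and without SOX17KO replicate 1 (adjusted p = 0.00108). Its span overlaps Gdf9, and without a stated strand setting it is not known whether reads of a shared stretch were kept apart. Whether exons of the pair overlap was not examined. Uqcr10 was at 104, 87.7 and 77.8 CPM in SOX17KO and 65.9, 69.7 and 79.5 CPM in Control, with overlapping groups and a log2 fold change of 0.32 ± 0.13 (SE; edgeR adjusted p = 0.209).

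The core proteins of complex III, the abundant matrix-facing subunits Uqcrc1 and Uqcrc2, showed a like pattern. Uqcrc1 was at 237, 268 and 246 CPM in SOX17KO and 222, 221 and 223 CPM in Control, apart, with an edgeR adjusted p of 0.270. Uqcrc2 was at 233, 261 and 265 CPM in SOX17KO and 208, 224 and 234 CPM in Control, overlapping by SOX17KO replicate 1 against Control replicate 3, with an edgeR adjusted p of 0.297 (0.0386 without SOX17KO replicate 1).

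Complex IV, the cytochrome c oxidase, was represented by its nuclear-encoded subunits, and genes of the mitochondrial genome were not analysed here. Of 12 tested members edgeR called 0, 0 had an unadjusted p below 0.05, 11 had a log2 fold change above 0, and the median was 0.10. Several subunits exist as a widely expressed form and a form of muscle or other tissues. Cox4i1, the widely expressed form of the subunit that regulates the enzyme, was at 295, 331 and 284 CPM in SOX17KO and 272, 286 and 296 CPM in Control (edgeR adjusted p = 0.668). Cox8a was at 204, 223 and 199 CPM in SOX17KO and 182, 187 and 201 CPM in Control, overlapping, by Control replicate 3, with an edgeR adjusted p of 0.449. Cox6a1 was at 151, 169.8 and 153 CPM in SOX17KO and 141, 138 and 143 CPM in Control, apart, with an edgeR adjusted p of 0.291. Cox6b1 stood at 0.04 on the log2 fold scale (edgeR adjusted p = 0.883), which was -0.03 without SOX17KO replicate 2.

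The counterparts from muscle and other tissues stayed at or near 0 in both groups. Cox6a1 made up at least 99.8% of the summed CPM of Cox6a1 and Cox6a2 in each library. Cox7a2, the widely expressed form, was at 113, 111 and 103 CPM in SOX17KO and 97.6, 105 and 112 CPM in Control, and its muscle form Cox7a1 at 0.649, 2.41 and 2.27 CPM in SOX17KO and 1.99, 1.67 and 1.90 CPM in Control. Cox7a1 took 1.62 ± 0.909% of their sum in SOX17KO and 1.75 ± 0.221% in Control (SD, n = 3 each). Its log2 fold change of -0.08 had a 95% interval of -1.16 to 1.01, and at this depth a level 2.01-fold higher still lay within it (edgeR adjusted p = 0.955). Leaving out SOX17KO replicate 1 gave Cox7a1 a log2 fold change of 0.33.

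Complex V, the ATP synthase, held both the most abundant members and the only call. Of 15 tested members 13 had a log2 fold change above 0, with a median of 0.11. Atp5b, the catalytic subunit, was at 1648, 1867 and 1732 CPM in SOX17KO and 1497, 1564 and 1587 CPM in Control. Atp5a1, the alpha subunit of the same catalytic head, was at 1272, 1353 and 1218 CPM in SOX17KO and 1114, 1135 and 1205 CPM in Control. For both genes every SOX17KO library was above every Control library, with log2 fold changes of 0.17 ± 0.09 and 0.15 ± 0.08 (SE), and neither passed edgeR's test (adjusted p = 0.323 and 0.379).

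The c ring of the ATP synthase is built from 1 protein encoded by the genes Atp5g1, Atp5g2 and Atp5g3, whose mature products are identical. Their log2 fold changes were 0.11, 0.11 and 0.01, with overlapping groups (edgeR adjusted p = 0.751, 0.600 and 0.965). Atp5g3 supplied 43.7 ± 1.78% of their summed CPM in SOX17KO and 45.5 ± 0.988% in Control, Atp5g2 supplied 32.0 ± 4.48% in SOX17KO and 30.9 ± 1.35% in Control, and Atp5g1 24.2 ± 2.70% in SOX17KO and 23.6 ± 0.366% in Control (SD, n = 3 each). On leaving out SOX17KO replicate 1, Atp5g1 stood at -0.01 and Atp5g3 at -0.05 on the log2 scale. For Atp5g3 the value was also below 0 without SOX17KO replicate 2 (-0.02) and without Control replicate 1 (-0.05).

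Atp5j2 fell in SOX17KO. It encodes subunit f of the membrane sector of the ATP synthase, a small protein at the base of the peripheral stalk. It was at 148.9, 151 and 128 CPM in SOX17KO and 190.3, 202 and 229 CPM in Control, with means of 143 ± 12.9 and 207 ± 19.9 CPM (SD, n = 3 each). Every SOX17KO library was below every Control library, and its level fell by 31.1% in the fit, a log2 fold change of -0.54 ± 0.11 (SE; 95% interval -0.79 to -0.29; edgeR adjusted p = 0.0292). The call was lost on leaving out SOX17KO replicate 2 or 3 (edgeR adjusted p = 0.0506 and 0.0674) or Control replicate 1, 2 or 3 (edgeR adjusted p = 0.0875, 0.123 and 0.128), with a log2 fold change of -0.60 to -0.46. The remaining 14 members of complex V had log2 fold changes of at most 0.17 in size and none was called.

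Genes around Atp5j2 on chromosome 5 were lower too. Of its 20 nearest tested neighbours, 10 on each side, 19 had a log2 fold change below 0 and 15 were called lower, with a median of -0.56. On the whole of chromosome 5, 16.8% of 788 tested genes were called lower. The median neighbour differed from the Control mean by -0.41, -0.50 and -0.58 on the log2 scale in SOX17KO replicates 1, 2 and 3, and Atp5j2 by -0.47, -0.45 and -0.69. The adjacent genes Cpsf4, which encodes an mRNA cleavage factor, and Ptcd1, a mitochondrial RNA-binding protein, had log2 fold changes of -0.57 and -0.46 (edgeR adjusted p = 0.0415 and 0.0726). Cpsf4 lost its call with library totals only (0.0851) and without any library but SOX17KO replicate 1 (0.0967 to 0.187), and Ptcd1 was called by DESeq2 (0.0225) and without SOX17KO replicate 1 (0.00159). Zkscan14, the zinc finger gene on the other side, had -0.23 (edgeR adjusted p = 0.473). The exception among the 20 was Rasl11a, at 0.03 with all libraries and -0.50 without SOX17KO replicate 1, called in neither. Whether the level of Atp5j2 differs for a reason of its own or with its neighbourhood was not tested. Atp5j2 is 1 of 3 tested members on chromosome 5, and the others, Atp5k and Cox6a1, had log2 fold changes of 0.17 each, with neighbourhood medians of 0.05 and 0.06.

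**Figure D4:**
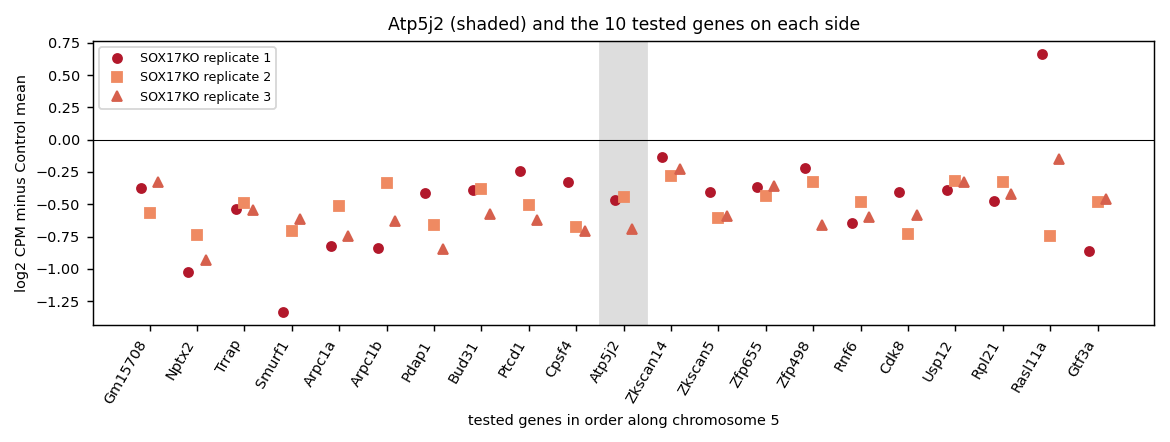
Log2 CPM minus the Control mean in each of the 3 SOX17KO libraries for Atp5j2 (shaded) and the 10 tested genes on each side of it, in their order along chromosome 5. Most points lie below 0, with a neighbour median log2 fold change of -0.56 beside -0.54 for Atp5j2, and Rasl11a is the gene with points on both sides of 0.

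Across members, the fold change could be set beside that of the neighbourhood. Over the 84 members with at least 15 such neighbours that were not members themselves, Pearson's r between a member's log2 fold change and the median of its neighbours was 0.55, and 0.29 over 83 members without Atp5j2. This is a description across genes, which share the same 6 libraries and are not replicates. The tested members lay on 19 chromosomes, with 9 of 85 on chromosomes 5, 6 and 12. In the same fit 18.7%, 13.1% and 16.3% of the tested genes on these chromosomes were called, against 6.87% of all tested genes. Atp5j2, the 1 called member, is among the 9, so a count of 0 called members elsewhere follows from its place.

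The promoter of Atp5j2 is printed beside those of Ndufs8, the complex I member with the highest log2 fold change, and Cycs, a gene in which SOX17KO replicate 1 stood apart, so that the letters upstream of a lower, a higher and a varying member can be compared. The windows are the RefSeq sequences of GRCm38.p6 from 250 bases before to 50 bases after the gene's start, on the gene's own strand, here chr5:145191492-145191791 for Atp5j2, chr19:3912725-3913024 for Ndufs8 and chr6:50566520-50566819 for Cycs, all on the minus strand. Capitals mark matches, on either strand, to motifs of factors known for mitochondrial genes: NRF1 (CGCATGCG), GABP (CCGGAAG), YY1 (AAGATGGC) and the CCAAT box (CCAAT).
Atp5j2: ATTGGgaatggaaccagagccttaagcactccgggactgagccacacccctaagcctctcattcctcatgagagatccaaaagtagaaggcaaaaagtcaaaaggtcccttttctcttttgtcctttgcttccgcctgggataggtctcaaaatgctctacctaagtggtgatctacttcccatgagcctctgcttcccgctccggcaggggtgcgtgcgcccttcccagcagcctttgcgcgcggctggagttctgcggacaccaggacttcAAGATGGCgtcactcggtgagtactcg
Ndufs8: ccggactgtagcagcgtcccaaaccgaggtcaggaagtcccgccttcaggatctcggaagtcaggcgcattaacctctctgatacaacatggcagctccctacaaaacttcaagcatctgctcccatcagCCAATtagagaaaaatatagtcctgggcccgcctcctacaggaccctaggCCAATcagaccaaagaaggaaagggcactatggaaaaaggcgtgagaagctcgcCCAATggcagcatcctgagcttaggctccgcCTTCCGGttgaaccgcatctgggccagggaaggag
Cycs: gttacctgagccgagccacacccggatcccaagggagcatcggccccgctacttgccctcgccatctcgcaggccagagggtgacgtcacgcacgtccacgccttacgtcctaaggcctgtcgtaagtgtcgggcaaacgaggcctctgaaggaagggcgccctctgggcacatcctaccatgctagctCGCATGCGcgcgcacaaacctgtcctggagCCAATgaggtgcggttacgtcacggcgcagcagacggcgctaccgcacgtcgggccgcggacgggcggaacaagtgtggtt
Atp5j2 holds a YY1 match just after its start and a CCAAT match at the far end, Ndufs8 a GABP match and 3 CCAAT matches, and Cycs an NRF1 match and a CCAAT match.

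Of the 85 tested members, 72 had a promoter in the RefSeq table, set beside 9656 tested genes and all 32851 promoters of the same length. The YY1 letters were present in 15.3% of members, 5.44% of tested genes and 2.75% of all promoters, and the NRF1 letters in 15.3%, 4.44% and 1.87%. The GABP letters were in 23.6% of members, 20.8% of tested genes and 8.86% of all promoters, and CCAAT in 45.8%, 43.8% and 37.4%. The median log2 fold change of members with a match was 0.11 for NRF1, 0.12 for GABP, 0.04 for YY1 and 0.11 for CCAAT, and of members without a match 0.11 for each of the 4. A match is a description of letters, and the motifs do not overlap each other in the printed windows.

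Cycs, whose product carries electrons between complexes III and IV and which also serves in apoptosis, differed widely between SOX17KO libraries. It was at 292, 162 and 188 CPM in SOX17KO and 175, 213 and 224 CPM in Control. SOX17KO replicate 1 was the highest and SOX17KO replicate 2 the lowest of the 6 libraries, and the log2 fold change of 0.07 ± 0.22 (SE) had a 95% interval of -0.45 to 0.59 (edgeR adjusted p = 0.918). It was -0.22 without SOX17KO replicate 1 and -0.03 without Control replicate 1.

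SOX17KO replicate 1 differed from the mean of SOX17KO replicates 2 and 3 by at least 0.5 on the log2 scale for 8 members (9.41%), against 24.8% of all tested genes and 17.5% of those at least as abundant. It was higher for 6 of them. Ndufa4, a complex IV subunit, was at 251, 148 and 154 CPM in SOX17KO and 149.9, 168 and 180.4 CPM in Control. Ndufa5, a subunit of the peripheral arm of complex I, was at 63.5, 40.5 and 42.1 CPM in SOX17KO and 38.6, 45.5 and 47.1 CPM in Control. The assembly factor Ndufaf4 was at 52.5, 31.0 and 30.4 CPM in SOX17KO and 32.1, 36.5 and 42.4 CPM in Control. In each of the 3 genes, as in Cycs, replicate 1 was the highest of the 6 libraries. The remaining members of this kind were Ndufaf2 and Cox4nb, with Cox4nb at 48.9, 34.1 and 25.2 CPM in SOX17KO and 30.1, 29.8 and 34.0 CPM in Control.

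Ndufv3, a complex I subunit of the NADH-binding module, and Cox7a1 went the other way. Ndufv3 was at 62.5, 99.9 and 95.4 CPM in SOX17KO and 80.6, 74.9 and 80.9 CPM in Control, so that replicate 1 was the lowest of the 6 libraries and its partners the highest. None of the 8 was called with all libraries (for Ndufa4, Ndufa5, Ndufaf4, Cox4nb and Ndufv3, edgeR adjusted p = 0.779, 0.736, 0.956, 0.708 and 0.781). With SOX17KO replicate 1 left out, the log2 fold changes were -0.14 for Ndufa4, -0.08 for Ndufa5, -0.27 for Ndufaf4 and -0.08 for Cox4nb, none of them called, and 0.31 for Ndufv3, which was then called (edgeR adjusted p = 0.0127). Cycs, Ndufa4 and Ndufa5 lie on chromosome 6. The medians of their 20 nearest tested neighbours in SOX17KO replicates 1, 2 and 3 were 0.06, -0.51 and -0.32 for Cycs, 0.03, -0.41 and -0.11 for Ndufa4, and -0.04, -0.29 and -0.10 for Ndufa5. Over 84 members, the gap of replicate 1 correlated with that of the neighbours at r = 0.15, a description across genes.

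**Figure D5:**
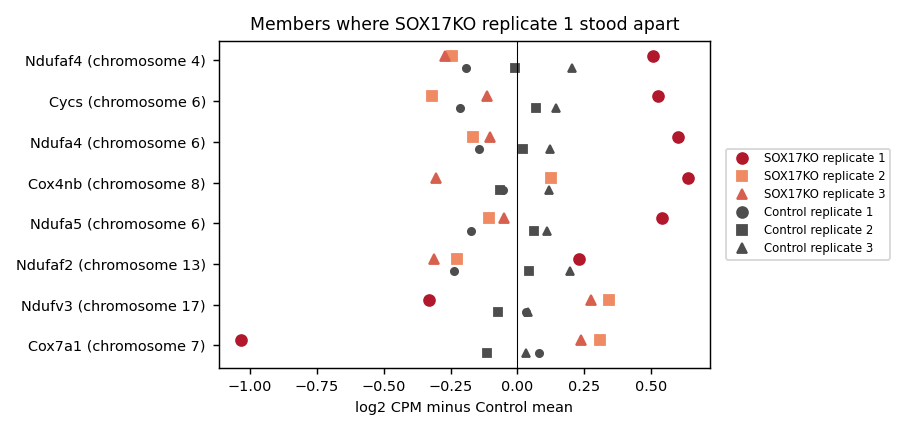
Log2 CPM minus the Control mean for the 8 members in which SOX17KO replicate 1 differed from the mean of replicates 2 and 3 by at least 0.5, with SOX17KO libraries in red above Control libraries in grey. In 6 of the 8 the circle of SOX17KO replicate 1 lies to the right of the other SOX17KO libraries, and in Ndufv3 and Cox7a1 to the left.

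Leaving out SOX17KO replicate 1, 6 members were called higher (Cox7a2l, Ndufaf1, Ndufs8, Ndufv3, Uqcrc2 and Uqcrq) and 1 lower (Atp5j2). The 6 were 7.06% of the members, against 11.9% of all genes called higher and 10.3% called lower in that fit. Cox7a2l, the supercomplex factor, was at 148, 178.5 and 178 CPM in SOX17KO and 136, 140.0 and 143 CPM in Control. Its groups were apart, with a log2 fold change of 0.27 ± 0.10 (SE; edgeR adjusted p = 0.166) that became 0.35 without replicate 1 (edgeR adjusted p = 0.00377).

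Other nuclear genes of mitochondria were described from 6 lists. Of all genes, edgeR called 3.67% higher and 3.20% lower, and DESeq2 4.52% and 3.92%. Without SOX17KO replicate 1, the edgeR shares were 11.9% and 10.3%. Of 18 citric acid cycle and pyruvate dehydrogenase genes edgeR called 0 higher and 1 lower, with 3 at an unadjusted p below 0.05 and a median log2 fold change of 0.06, and DESeq2 called 1 higher and 2 lower. Without SOX17KO replicate 1, edgeR called 2 higher and 2 lower. Mdh2, mitochondrial malate dehydrogenase, fell to 173, 160.3 and 143 CPM in SOX17KO, against 418, 405 and 425 CPM in Control (log2 fold change -1.39 ± 0.09, SE; edgeR adjusted p = 0.000718), and lies on chromosome 5. Of the 26 further assembly factors that were tested, edgeR called 0 higher and 1 lower, with 3 at an unadjusted p below 0.05 and a median of 0.02, and 2 were higher and 1 lower both with DESeq2 and on leaving out SOX17KO replicate 1. The gene called by edgeR with all libraries was Cox19, a factor of complex IV assembly on chromosome 5, at 23.0 ± 1.99 CPM in SOX17KO and 42.1 ± 2.68 CPM in Control (SD, n = 3 each; edgeR adjusted p = 0.00453). Mdh2 and Cox19 kept their calls without each library in turn.

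Of 76 mitochondrial ribosomal protein genes edgeR called 0 higher and 2 lower, with 11 at an unadjusted p below 0.05 and a median of 0.09, and DESeq2 called 1 higher and 2 lower. Of all genes, DESeq2 called 4.52% higher and 3.92% lower. Without SOX17KO replicate 1, edgeR called 1 higher and 5 lower, against 11.9% and 10.3% of all genes. Those it called with all libraries were Mrps25 on chromosome 6 (log2 fold change -0.47, edgeR adjusted p = 0.0185) and Mrps6 on chromosome 16 (-0.44, edgeR adjusted p = 0.0405). Mrps25 lost its call without any 1 of the Control libraries (0.0861 to 0.115), as did Mrps6 (0.124 to 0.160), which also lost it without SOX17KO replicate 2 or 3 (0.0696 and 0.0895) and with library totals only (0.0562). Among 15 regulators of mitochondrial biogenesis edgeR called 1 higher and 0 lower, with 2 at an unadjusted p below 0.05 and a median of 0.11, and 2 were called higher by DESeq2 and by edgeR without SOX17KO replicate 1. The gene called with all libraries was Yy1, on chromosome 12, at 146, 143 and 153 CPM in SOX17KO and 104, 109 and 109 CPM in Control (log2 fold change 0.46 ± 0.07, SE; edgeR adjusted p = 0.0120), and lost its call without any 1 of the Control libraries (0.0865 to 0.0886). None of 21 import and chaperone genes was called by edgeR, DESeq2 or limma-voom, 1 had an unadjusted edgeR p below 0.05, and the median was 0.08. Their most abundant gene Hspd1, the chaperonin HSP60, was at 954, 686 and 633 CPM in SOX17KO and 642, 741 and 767 CPM in Control, with SOX17KO replicate 1 again the highest of the 6 libraries. Its log2 fold change was 0.08, and -0.12 without that library.

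None of 9 carriers and partners of the ATP synthase was called by edgeR, 3 had an unadjusted p below 0.05, and the median was 0.12. DESeq2, and edgeR without SOX17KO replicate 1, each called 2 higher, against 4.52% and 11.9% of all genes in those fits. Slc25a5, an ADP/ATP carrier, was at 847, 776 and 713 CPM in SOX17KO and 575, 616 and 662 CPM in Control, apart, with a log2 fold change of 0.33 ± 0.10 (SE; edgeR adjusted p = 0.105), and was called by DESeq2 (adjusted p = 0.0274) and without SOX17KO replicate 1 (edgeR adjusted p = 0.0402). Over the members and the 6 lists, 6 of 250 tested genes (2.40%) were called, against 6.87% of all tested genes. Of these 6, 5 lie on chromosomes 5, 6 and 12, which hold 14.9% of all tested genes and 294 of all 834 called genes (35.3%). These chromosomes are rich in called genes in the same fit, so the count is a description and not a test of place. Calls were mostly lower on chromosome 5 (132 of 147) and chromosome 6 (63 of 77), and mostly higher on chromosome 12 (65 of 70).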

How the data were processed

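RNA was measured in 3 SOX17KO and 3 Control libraries. Directional libraries were made from poly(A) RNA, per the labels' protocols. Bowtie, RSEM and the build mm9 are listed without versions in the submitters' processing notes, while nothing used here states the annotation or the strand setting of counting. Expected counts were the unit the authors deposited, in a single table, and RSEM divides reads shared between genes. Of the 87 members with counts, 46.0% to 62.1% had values more than 1e-06 from a whole number, against 36.3% to 41.2% of all genes with counts. The latter include many genes with few counts, so the shares are not matched for abundance. Which genes the divided reads were shared with was not tested. Of the tested members, 14 have a span that overlaps another gene of the table, among them Atp5a1, Atp5b, Cox7a2, Uqcrc2 and Uqcrq, and their values are uncertain to that extent.

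Values were rounded to whole numbers and tested with edgeR 4.0.16 in R 4.3.3 (TMM factors, filterByExpr with minimum count 10 and total 15, quasi-likelihood F test, Benjamini-Hochberg over all genes tested, threshold 0.05). Standard errors were derived as the log2 fold change over the square root of F. CPM used TMM-adjusted library sizes, and differences of single libraries used log2(CPM + 0.5). The procedure was tested on simulated data. Alternatives were RLE factors, library totals only, no filter, at least 1 CPM in 3 libraries, DESeq2 1.42.0, a block for the replicate number, unrounded values, limma-voom (limma 3.58.1), and each library left out.

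Transcript lengths came from GENCODE mouse release 21, and chromosomes, gene order and promoters from RefSeq (GRCm38.p6, which followed mm9). All 92 members were matched by symbol or synonym. Members and lists were chosen with earlier results of these data known. Named were called members, the 2 most abundant of each complex, tissue paralogs, the 3 uncalled members of largest change each way, and from each other list up to 2 called genes or the most abundant one. Atp5k and Ndufb2 were named only for their chromosomes and are not among the members followed through the other settings. A single complex I member counted in the totals is not reported by name here. Ndufa5, Ndufv3, Ndufaf1, the neighbours of Atp5j2 and the promoters shown were picked with their values in view, and the neighbour comparison was added after seeing the data. The labels do not say whether libraries came from separate cultures, so p-values describe the spread among these samples, which may be technical. Limits for 0 counts cover counting error only.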

Additional observations from a re-analysis of the deposited data

How the results depend on the processing

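With 0 members called higher by edgeR, library totals only gave 1, DESeq2 2, and leaving out single libraries 0 to 6, the last without SOX17KO replicate 1. Of all genes, 3.57% were called higher with library totals only, 4.52% by DESeq2 and 11.9% without SOX17KO replicate 1. The 1 member called lower became 0 with the replicate block and lay between 0 and 1 without single libraries. Outside chromosomes 5, 6 and 12 it was 0, which follows from the place of Atp5j2 on chromosome 5. All genes called numbered 834, and were 326 with the replicate block, 1439 by DESeq2 and 192 to 2708 without single libraries. Fits without single libraries also had fewer samples, and the causes of these differences were not tested. The median log2 fold change of the members stayed between 0.07 and 0.14 without single libraries and was 0.11 with RLE factors and 0.13 with library totals.

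Same-numbered SOX17KO and Control libraries did not deviate together (correlations of deviations over genes of -0.23, -0.06 and -0.25 for replicates 1, 2 and 3). Between libraries of different number the correlations ran from -0.08 to 0.22. The highest were 0.22 for SOX17KO replicate 1 with Control replicate 3 and 0.21 for SOX17KO replicate 3 with Control replicate 1. No pairing by number was visible, but 3 libraries per group cannot exclude that same-numbered libraries were handled together. With the replicate block 7 genes named above lost their calls: Atp5j2 (edgeR adjusted p = 0.133), Yy1 (0.0946), Mrps25 (0.113), Mrps6 (0.169), Cpsf4 (0.124), Cldn7 (0.126) and Epcam (0.192).

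Over 31 named members and 14 other settings, 401 values kept their sign and side of the threshold, 9 passed it newly, 6 lost it (all Atp5j2) and 18 uncalled values crossed 0. The last include Ndufaf2 without SOX17KO replicate 3 (0.01), Ndufaf4 without Control replicate 1 (-0.06) and Ndufv3 without SOX17KO replicate 2 (-0.00052). Low depth limits Cox7a1 and the 7 untested members.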
